A study of Mus musculus with 68 samples.

Results

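The levels of 9 glial genes were read across every group of single cells in the series: Fabp7, Slc1a3, Slc1a2, Glul, Aldh1l1, Clu, Gfap, S100b and Aqp4. Their members on the array are all the probe sets that the platform annotation maps to these 9 genes, 29 of 45037 probe sets, and 28 of the 29 map to 1 gene only. Where a gene had several probe sets, its main probe set was the one with the highest mean over all cells. The cells came from CD1 mouse embryos, and each array is an Affymetrix Mouse Genome 430 2.0 chip hybridised with cDNA amplified from 1 cell. The groups were 30 cells of the dorsolateral cerebral wall at E11, 28 cells of the ventricular and subventricular zones at E16, 3 E12 apical progenitors (APs), 3 neurosphere APs from E11 cells kept 3 days in vitro, and 4 NICD/p18 APs. The NICD/p18 APs were EGFP-positive cells of E14 embryos, picked 3 days after electroporation of the Notch1 intracellular domain under the CAG promoter and the cell-cycle inhibitor p18 under the EF promoter, so that age, both transgenes and the electroporation differ together from the E11 cells. The E11, E12 and E16 cells had been screened by PCR for a few marker transcripts before they were chosen for arrays. The study also identified its NICD/p18 and neurosphere APs by marker transcripts, so marker counts in all groups are shaped in part by selection.

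Radial glia are the APs of the cortex once neurogenesis is under way: they keep an apical foot at the ventricle, divide there, and later in development give rise to astrocytes. Fabp7, the brain lipid-binding protein BLBP, and Slc1a3, the glutamate transporter GLAST, are the textbook markers of radial glia. Glul makes glutamine from the glutamate that such transporters take up, Aldh1l1 is a folate-pathway dehydrogenase used as a pan-astrocyte marker, and Clu encodes the secreted chaperone clusterin. Slc1a2, the transporter GLT-1, Gfap, an intermediate filament, S100b, a calcium-binding protein, and Aqp4, the water channel of astrocyte endfeet, are best known from more mature astrocytes and ependymal cells. The question put to the arrays was which of these transcripts were on at E11 or E12, which were on by E16, and which were off throughout.

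A gene was called on in a cell when its signal reached the median signal of the phe spike, an RNA added at 20 copies per cell. After normalization this 20-copy level was 842 signal units, or 9.72 on the log2 scale, and log2 signals are given throughout. The spike itself ran from 3.71 to 12.70 over the arrays, so the level is a shared line and not a copy number of each cell. A gene was on in a group where at least 50% of the cells were on, off where no cell was, and partial in between. The labels give no cell type for the E11 and E16 cells, so they were clustered at each stage on markers of APs, intermediate progenitors (IPs) and neurons, none of which is among the 9 genes. With 1 low-quality E11 cell left out, this gave 23 AP-like, 2 IP-like and 4 neuron-like cells at E11, and 17 AP-like, 9 IP-like and 2 neuron-like cells at E16. Since no embryo, litter or culture is given for any cell, each group was taken as 1 sample, no test between groups was made, and intervals on shares are exact binomial 95% intervals that cover counting error only. The E12, neurosphere and NICD/p18 arrays had been scaled to a trimmed mean of 500.0, while the E11 and E16 arrays ran from 47.5 to 297.5, so that scaling cannot be told apart from those conditions.

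Some cells carried markers of a type other than their label or cluster. In the NICD/p18 APs, 9 of 12 neuron markers were on in cell M5K and 9 in M6C, against 3 in M5A and 1 in M6H. The AP markers on in these cells numbered 7 of 10 in M5K and 6 in M6C, beside 7 in M5A and 8 in M6H. Of the E12 APs, replicate 2 had 5 neuron markers on and replicate 1 had the IP gene Eomes at 11.75. Mki67, a gene of cycling cells, was on in 0 of 4 NICD/p18 APs, in all 3 E12 APs and all 3 neurosphere APs, in 19 of 23 E11 AP-like cells and in 15 of 17 E16 AP-like cells. By PCR the study had chosen the E12 array cells as positive for Ki67 (Mki67) and negative for Tbr2 (Eomes). It described its neurosphere APs as Ki67-positive and reported no Ki67 in NICD/p18 APs. The Mki67 counts of the E12, neurosphere and NICD/p18 APs thus follow in part from how those cells were identified. Of 5 markers of oligodendrocyte precursors 3 were on in at least 1 neurosphere AP, Olig1, Olig2 and Sox10, and their part in the neurosphere results was not tested. Olig1 and Olig2 were also on among the E16 AP-like cells and Olig2 among the E16 IP-like cells, with at most 1 of the 5 markers in a cell. Among the clustered cells, the E11 AP-like cell E11-37N had 5 of 10 IP markers and 4 neuron markers on, and the E16 AP-like cell E16-81L had Eomes at 10.07. The E11 neuron-like cell E11-45O had 8 of 10 IP markers and 7 of 12 neuron markers on, with Eomes at 13.23 and Mki67 at 12.89. Eomes was on in 3 of 4 E11 neuron-like cells. It was on in 1 of 2 E16 neuron-like cells, at 11.20, and up to 4 of 10 IP markers were on in an E16 neuron-like cell. Of the 17 E16 AP-like cells, 10 have names that begin with E16-81, and what this shared number stands for is not given in the sources used here. For microglia, vessels, mesenchyme and choroid plexus at most 1 marker of each list was on in any group, and the 4 ependymal markers were on in no cell of any group.

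The promoters of 4 of the genes are shown as examples. Fabp7, Slc1a3 and Aldh1l1 differed between the cell groups, and Gfap was on in 1 cell only. Clu and Glul also differed between groups but are not shown. The 4 windows shown each hold a match to a motif described below, while those of Glul and Slc1a2 hold none. Each window runs 5′ to 3′ along the gene's strand, from 250 bases before to 50 bases after the RefSeq gene start on GRCm38.p6. Capitals mark TGGGAA, the core letters of the RBPJ motif that the Notch intracellular domain acts through, and TTC and GAA parted by any 3 bases, the STAT motif, each searched on both strands. The windows are Fabp7 at chr10:57784673-57784972 on the plus strand, Slc1a3 at chr15:8710758-8711057 on the minus strand, Aldh1l1 at chr6:90550543-90550842 on the plus strand and Gfap at chr11:102897151-102897450 on the minus strand.
Fabp7: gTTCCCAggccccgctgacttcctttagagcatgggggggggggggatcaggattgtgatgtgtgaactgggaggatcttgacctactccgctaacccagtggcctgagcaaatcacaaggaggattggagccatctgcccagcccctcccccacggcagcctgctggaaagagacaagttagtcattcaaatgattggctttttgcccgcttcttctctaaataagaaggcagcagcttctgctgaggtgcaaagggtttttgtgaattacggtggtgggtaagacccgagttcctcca
Slc1a3: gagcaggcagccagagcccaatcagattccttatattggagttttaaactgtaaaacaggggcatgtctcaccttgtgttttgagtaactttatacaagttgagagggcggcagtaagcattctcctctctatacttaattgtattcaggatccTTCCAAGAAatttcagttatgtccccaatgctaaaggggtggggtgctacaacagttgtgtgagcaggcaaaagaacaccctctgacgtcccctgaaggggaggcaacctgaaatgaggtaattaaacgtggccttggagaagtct
Aldh1l1: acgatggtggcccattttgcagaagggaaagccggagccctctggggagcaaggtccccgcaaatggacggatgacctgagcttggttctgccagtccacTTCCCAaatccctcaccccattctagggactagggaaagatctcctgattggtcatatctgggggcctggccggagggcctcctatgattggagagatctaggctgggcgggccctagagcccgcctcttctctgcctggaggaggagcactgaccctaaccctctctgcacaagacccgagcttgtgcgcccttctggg
Gfap: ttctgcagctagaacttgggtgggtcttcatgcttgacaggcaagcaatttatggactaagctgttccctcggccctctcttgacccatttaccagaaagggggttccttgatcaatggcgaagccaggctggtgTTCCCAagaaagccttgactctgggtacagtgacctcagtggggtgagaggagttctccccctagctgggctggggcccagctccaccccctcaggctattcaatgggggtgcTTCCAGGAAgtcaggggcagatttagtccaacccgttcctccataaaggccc
Of the 9 members 7 matched the RefSeq promoter table, and Clu and Aqp4 did not. TGGGAA was present in 4 of these 7 windows, those of Fabp7, Aldh1l1, Gfap and S100b, each with 1 match on the reverse strand, and in 25.6% of all 32851 promoter windows of the same length. The STAT motif was present in 2 of the 7, Slc1a3 and Gfap, with 1 match each, and in 8.30% of all windows. The NFI palindrome, TTGGC and GCCAA parted by any 5 bases, was in none of the 7 and in 0.0365% of all windows. These matches describe letters in a short window and say nothing of binding.

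No member was on in the E11 AP-like cells, and 5 of the 9 were on in the E16 AP-like cells. In the E11 AP-like cells Fabp7, Glul and Slc1a3 were partial and the other 6 were off, while 7.62% of all probe sets were on in that group. With signals as deposited, with scaling on the lys spike, or with the level set lower by 1 on the log2 scale, 1 member was on there, Fabp7, in 13, 14 and 16 of 23 cells. In the E12 APs 2 of the 9 members were on, Fabp7 and Glul, and 7 were off, against 8.70% of all probe sets. The neurosphere APs had the same 2 members on, against 8.43% of all probe sets. In the NICD/p18 APs 5 members were on, Fabp7, Slc1a3, Glul, Aldh1l1 and Clu, Gfap was partial, and Slc1a2, S100b and Aqp4 were off, against 10.5% of all probe sets. In the E16 AP-like cells those 5 members were on as well, and Slc1a2, Gfap, S100b and Aqp4 were off, against 7.15% of all probe sets. With each array held to its own phe spike, at double the level, or with the median over the probe sets of a gene, 2 members were on in the E16 AP-like cells. The median over probe sets also left 2 members on in the NICD/p18 APs, Fabp7 and Clu. Among the E16 AP-like cells, Slc1a3, Glul, Aldh1l1 and Clu were on in 5, 5, 4 and 6 of the 10 cells named E16-81 and in 4, 6, 5 and 5 of the other 7. These calls follow the main probe sets, each picked for the highest mean over all cells, while the shares are over all probe sets without such a pick. A count of members is thus not like for like with its share, and the 2 members on at E12 and in neurosphere APs are not read as above it. Of the 28 single-gene probe sets, 14 were on in at least 1 cell.

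**Figure D1:**
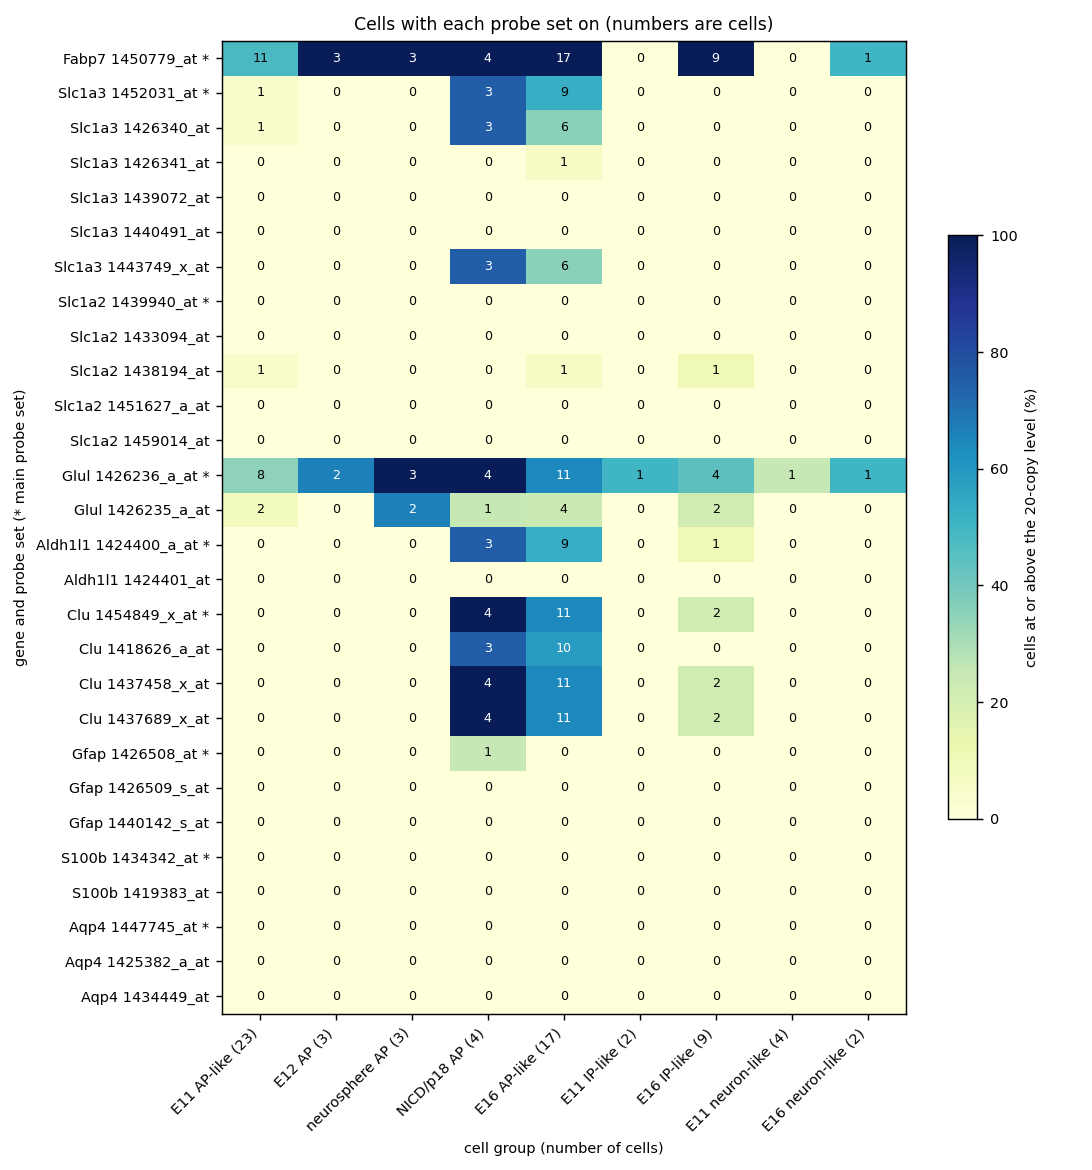
Number of cells at or above the 20-copy level for each of the 28 single-gene probe sets (rows, the main one of each gene marked with a star) in each cell group (columns, number of cells in brackets); colour gives the share of cells in percent. Fabp7 filled every AP group from E12 on, Clu, Aldh1l1 and Slc1a3 were filled in the NICD/p18 APs and the E16 AP-like cells, and the rows of S100b and Aqp4 were empty.

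Fabp7 was on in every AP group from E12, and it was the member on in the most E11 AP-like cells. In the E11 AP-like cells its signal ran from 0.18 through a median of 9.56 to 12.83, and 11 of 23 cells were on (47.8%, interval 26.8% to 69.4%). Fabp7 was thus high in some E11 AP-like cells and near 0 in another. At E12 the 3 APs read 11.20, 11.02 and 11.25, all on, with an SD of 0.12, while 5 E11 AP-like cells lay above all of them. The 3 neurosphere APs read 13.78, 13.79 and 13.75, and the 4 NICD/p18 APs 13.98, 13.78, 13.95 and 13.76. Both groups lay above every E11 AP-like cell. In the E16 AP-like cells Fabp7 ran from 12.89 through 13.95 to 14.11, with 17 of 17 cells on (interval from 80.5%). The mean was thus 8.42 (SD 3.74, n = 23) at E11 and 13.88 (SD 0.28, n = 17) at E16, at least 17.9-fold higher, and the 2 groups of cells did not overlap. The E16 mean differed from the neurosphere mean by 0.11 and from the NICD/p18 mean by 0.01, less than the SD between E16 cells, and it was 6.61-fold above the E12 mean. These values lie near the top of the normalized scale, where Dbi had a mean of 14.20 and an SD of 0 in the NICD/p18 APs. Signals there are set by rank, so differences and SDs can be narrowed. Deposited Fabp7 signals ran from 5612 to 14902 in E16 AP-like cells and from 19707 to 39206 in NICD/p18 APs, on arrays scaled differently.

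**Figure D2:**
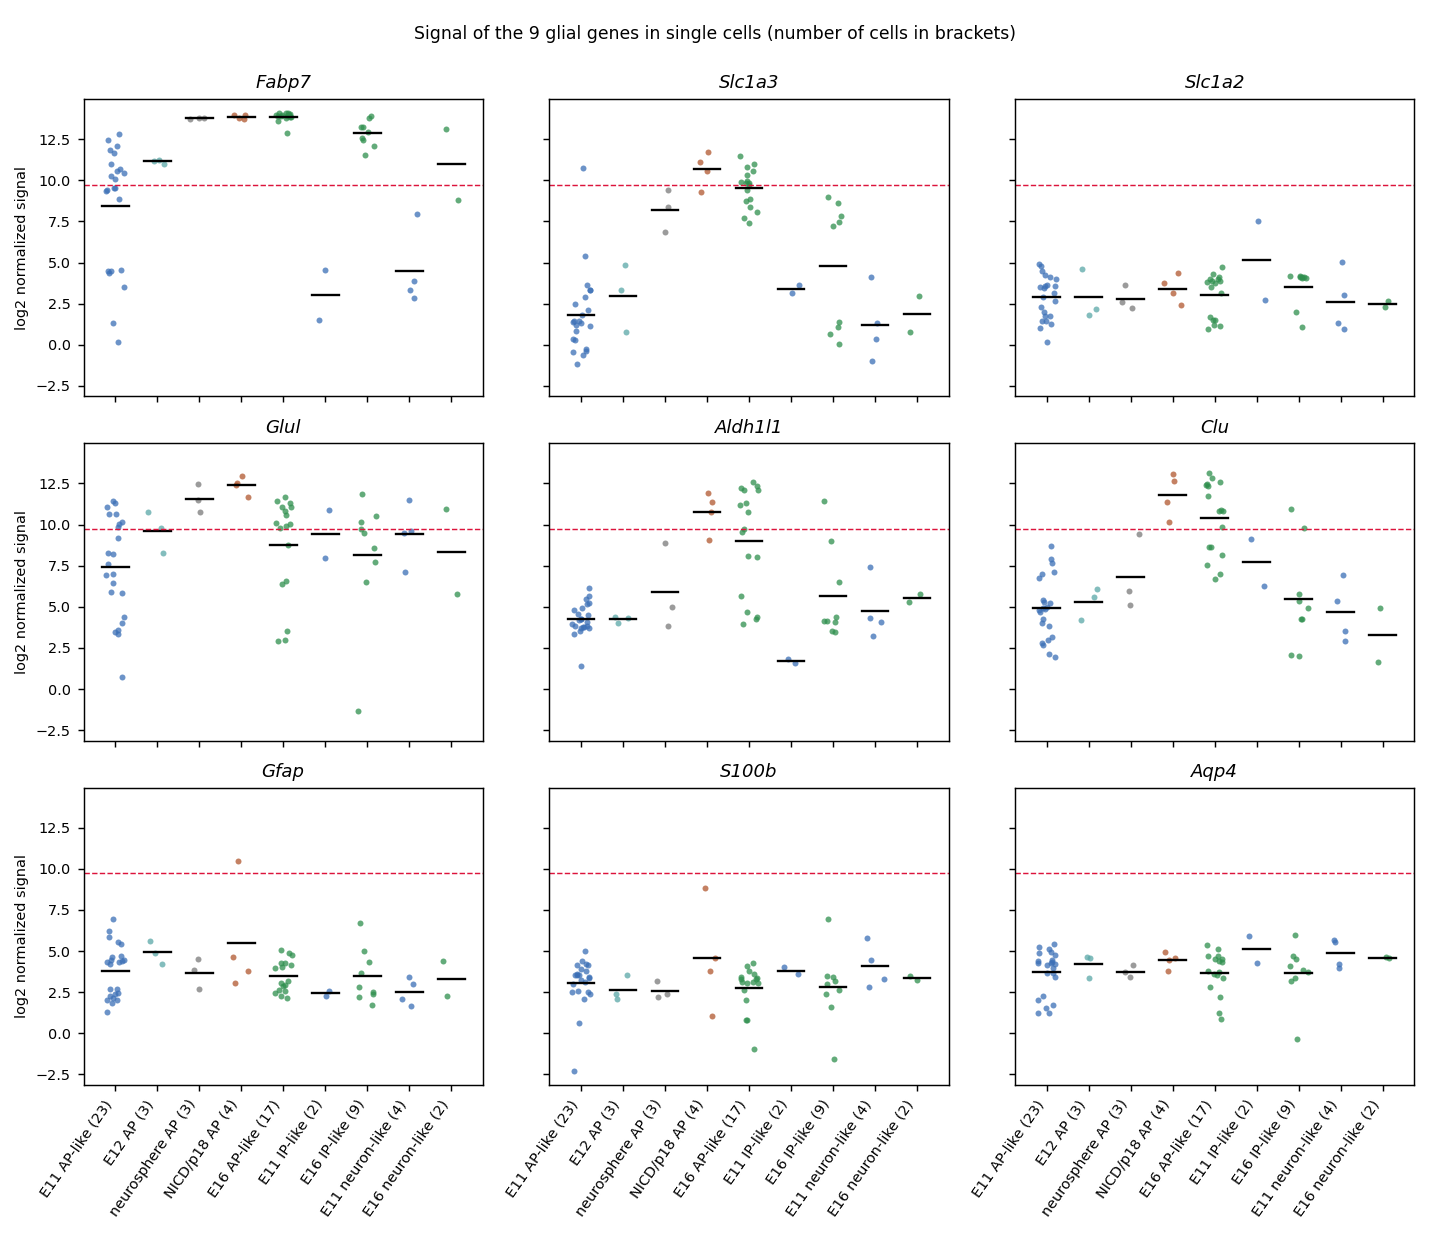
Log2 normalized signal of the main probe set of each of the 9 genes in each of 67 cells, by cell group; each point is 1 cell, black bars are group means and the dashed red line is the 20-copy level at 9.72. Fabp7 runs from 0.18 to 12.83 in E11 AP-like cells and from 12.89 to 14.11, near the top of the normalized scale, in E16 AP-like cells. The points of Slc1a2, S100b and Aqp4 lie below the line in every group.

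Fabp7 was on in the IP-like cells of E16 and off in those of E11. The 2 E11 IP-like cells read 4.57 and 1.49, and the 4 E11 neuron-like cells read 2.82, 3.87, 3.31 and 7.98, all off, the last being E11-45O with its 8 IP markers on. In the E16 IP-like cells it ran from 11.54 through 12.95 to 13.89 and was on in 9 of 9 cells (interval from 66.4%). Their mean of 12.86 (SD 0.78) was 2.03-fold below that of the E16 AP-like cells, and the 2 groups overlapped. Of the 2 E16 neuron-like cells, 1 read 13.14 and the other 8.79.

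Slc1a3 was off in nearly all E11 and E12 cells, and at E16 it lay near the line. In the E11 AP-like cells it ran from -1.19 through 1.40 to 10.73, and 1 of 23 cells was on (4.35%, interval 0.110% to 21.9%). That cell, E11-37M, also had Fabp7 at 12.12, and the next highest E11 AP-like cell read 5.38. The 3 E12 APs read 0.78, 3.34 and 4.82, within the range of the E11 cells. The 3 neurosphere APs were all off, at 8.41, 9.38 and 6.85, and yet all of them lay above 22 of the 23 E11 AP-like cells. The NICD/p18 APs read 11.73, 9.26, 10.60 and 11.15, with 3 of 4 on. In the E16 AP-like cells Slc1a3 ran from 7.40 through 9.83 to 11.46, and 9 of 17 were on (52.9%, interval 27.8% to 77.0%). Every E16 AP-like cell lay above those 22 E11 cells. The mean difference between the stages was 7.69 (SD 1.18 at E16 and 2.50 at E11), but the E16 mean of 9.53 lay under the 20-copy level, so no fold is given.

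The call of Slc1a3 rested on the probe set and on the level. Besides the main probe set, 1426340_at and 1443749_x_at were on in 6 of 17 E16 AP-like cells each and in 3 of 4 NICD/p18 APs each, and the first of them also in 1 E11 AP-like cell. Of the other 3, 1426341_at was on in 1 E16 AP-like cell, and 1439072_at and 1440491_at in none. With each array held to its own phe spike, Slc1a3 was on in 8 of 17 E16 AP-like cells and in 1 of 4 NICD/p18 APs. The phe spike itself had a median of 3308 signal units in the NICD/p18 APs and 877 in the E16 AP-like cells, and its part in the calls was not tested beyond that alternative. In the E16 IP-like cells Slc1a3 was on in 0 of 9 cells (interval up to 33.6%), and the signals ran from 0.03 through 7.24 to 8.98. Their mean of 4.82 was 4.72 below that of the E16 AP-like cells, and the groups overlapped.

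Slc1a2, the second glutamate transporter, was off on its main probe set in every group. Its signals there ran to 7.55 at most, in an E11 IP-like cell, and E11 and E16 AP-like means differed by 0.13. Of its 5 single-gene probe sets, 1438194_at was on in 3 of 67 cells, the E11 AP-like cell E11-38O at 10.14, the E16 AP-like cell E16-76F at 10.14 and the E16 IP-like cell E16-82H at 10.25. No second probe set was on in these cells, and the sixth Slc1a2 probe set also maps to Gm13872 and was not counted.

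Glul was the only member that was on in at least 1 cell of every group. In the E11 AP-like cells it ran from 0.73 through 7.62 to 11.45, with 8 of 23 on (34.8%, interval 16.4% to 57.3%). In the E16 AP-like cells it ran from 2.94 through 10.07 to 11.66, with 11 of 17 on (64.7%, interval 38.3% to 85.8%). The 2 stages overlapped over most of their range, and the difference of means, 1.37, was under the SD of either group (3.08 in each). The 3 E12 APs read 9.80, 10.76 and 8.27. The neurosphere APs read 11.50, 12.48 and 10.77 and the NICD/p18 APs 12.53, 11.66, 12.42 and 12.97, all on. Every NICD/p18 cell lay above every E11 and E16 AP-like cell, although the lowest of them and the highest E16 cell both rounded to 11.66. The NICD/p18 mean of 12.40 (SD 0.54) was at least 6.39-fold above the means of both. Glul was on in 4 of 9 E16 IP-like cells, 1 of 2 E11 IP-like cells, 1 of 4 E11 neuron-like cells, which was E11-45O, and 1 of 2 E16 neuron-like cells. On its second probe set, 1426235_a_at, it was on in 2 E11 and 4 E16 AP-like cells, 2 neurosphere APs, 1 NICD/p18 AP and 2 E16 IP-like cells. Of the latter, E16-76C read 10.12 there and -1.36 on the main probe set.

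Aldh1l1 and Clu were off in all E11 AP-like, E12 and neurosphere cells, and on in the NICD/p18 APs and the E16 AP-like cells. Aldh1l1 ran from 1.42 through 4.17 to 6.14 in the E11 AP-like cells (0 of 23 on, interval up to 14.8%). At E12 it read 4.35, 4.36 and 4.02, and in the neurosphere APs 5.01, 8.91 and 3.84. The E12 values lay among the E11 cells, and 1 neurosphere cell, W2O, lay above them. The NICD/p18 APs read 11.37, 9.07, 10.74 and 11.89, with 3 of 4 on and none overlapping the E11 cells. At E16 Aldh1l1 split the AP-like cells, from 3.93 through 9.76 to 12.60, with 9 of 17 on (interval 27.8% to 77.0%). In 12 of the 17 it lay above every E11 AP-like cell, and the other 5 lay among them. The mean at E16 (SD 3.25) was 4.74 above that of 4.26 (SD 0.97) at E11, and it lay under the 20-copy level. Its second probe set, 1424401_at, was on in no cell.

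Clu was followed by 4 probe sets whose calls differed by at most 1 cell in the NICD/p18 APs and in the E16 AP-like cells. In the E11 AP-like cells it ran from 1.97 through 4.86 to 8.69, with 0 of 23 on. The E12 APs read 5.62, 4.17 and 6.09 and the neurosphere APs 9.40, 5.97 and 5.09, so that 1 neurosphere cell, W2G, came close to the line. The NICD/p18 APs read 10.14, 12.65, 11.36 and 13.10, all on and above every E11 AP-like cell. The E16 AP-like cells ran from 6.66 through 10.81 to 13.15, with 11 of 17 on (64.7%, interval 38.3% to 85.8%), and the same 11 lay above every E11 AP-like cell. The E16 mean of 10.38 (SD 2.21) stood 5.46 above the E11 mean of 4.92 (SD 1.90), at least 1.58-fold against the 20-copy level. In the E16 AP-like cells Clu went with the array's trimmed mean signal at a Spearman rho of -0.46 over the 17 cells, given as a description, and its part in the result was not tested.

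Gfap, S100b and Aqp4, the genes of more mature astrocytes, were off in the E11, E12, neurosphere and E16 cells. The E16 AP-like means were 3.51 for Gfap, 2.75 for S100b and 3.69 for Aqp4, and they differed from the E11 AP-like means by -0.28, -0.31 and -0.01, less than the SD between E11 cells in each case. Gfap was on in 1 of 67 cells, the NICD/p18 AP M6H, at 10.44, while the other 3 NICD/p18 APs read 4.61, 3.06 and 3.79. A second Gfap probe set, 1426509_s_at, read 9.62 in M6H, just under the line, while 1440142_s_at read -0.46. S100b was highest in the same cell, at 8.85, below the line, against 3.77, 1.06 and 4.60 in M5A, M5K and M6C. Aqp4 reached 9.65 on 1434449_at in an E16 neuron-like cell and was on in no cell on any of its 3 probe sets. M6H was thus the cell with the most members on, 6 of 9, and it had the fewest neuron markers on of its group.

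The members were also compared with E11 AP-like cells by the size of the mean difference, beside the same count over the whole array. A probe set counted as higher where its mean log2 signal differed by at least 2 and the higher mean reached the 20-copy level, and 20672 probe sets had at least 1 cell on. From E11 to E16 AP-like cells 2 of 9 members counted as higher, Fabp7 and Clu, or 4 of the 14 member probe sets with a cell on, against 0.866% of all probe sets. Slc1a3 and Aldh1l1 differed by 7.69 and 4.74, but their E16 means stayed under the level. The median difference was 1.37 over the 9 members and -0.08 over all probe sets. In E12 APs 1 member counted as higher, Fabp7, by 2.74, or 1 of the 14 probe sets, against 2.63% of all probe sets. Glul differed by 2.22 at E12 with a mean of 9.61 under the level. With low signals raised to a floor no member counted as higher at E12, and without the E12 AP replicate 3 the count was 2. In neurosphere APs 2 members counted as higher, Fabp7 by 5.35 and Glul by 4.19, or 2 of the 14 probe sets, against 2.84%. In NICD/p18 APs 5 members did, or 8 of the 14 probe sets, against 3.00%, with differences of 5.45 for Fabp7, 8.84 for Slc1a3, 5.00 for Glul, 6.50 for Aldh1l1 and 6.90 for Clu. With the median over the probe sets of a gene 2 members counted as higher there, and with signals as deposited 2228 probe sets did over the whole array instead of 621. These 4 comparisons share the E11 AP-like cells. No member counted as lower in any of them.

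**Figure D3:**
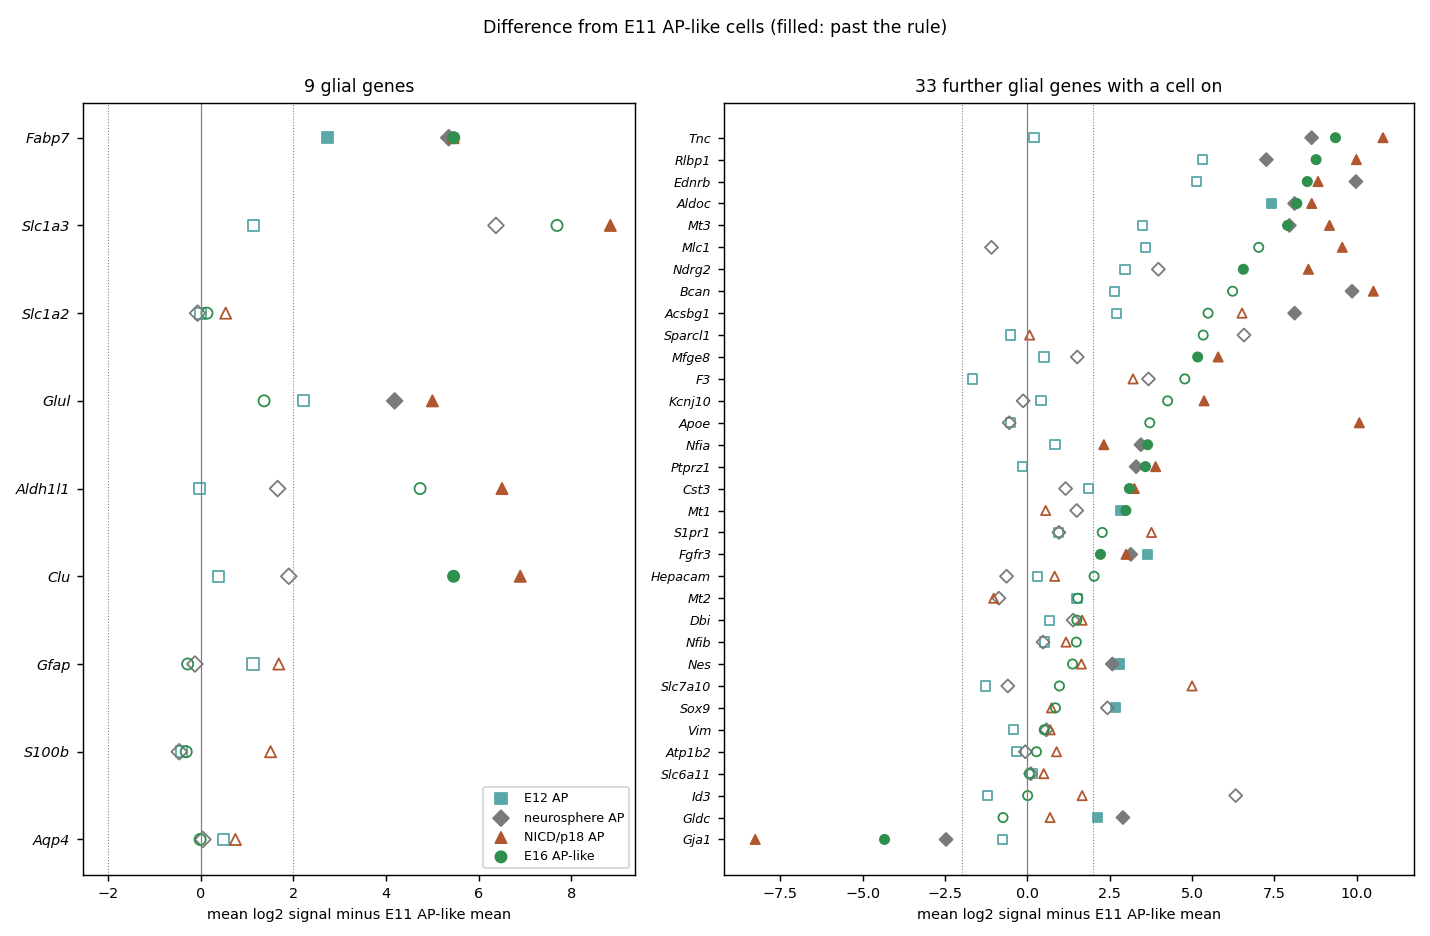
Mean log2 signal of each cell group minus the mean of E11 AP-like cells, for the 9 glial genes (left) and for the 33 further glial genes with at least 1 cell on (right); filled symbols differ by at least 2 with the higher mean at or above the 20-copy level, and dotted lines mark differences of 2. Among the 9 genes the NICD/p18 symbols of Fabp7, Slc1a3, Glul, Aldh1l1 and Clu are filled, while those of Slc1a2, Gfap, S100b and Aqp4 lie within 2 of 0.

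The NICD/p18 APs overlapped the E16 AP-like cells in every member but Glul. Clu was 2.71-fold higher in the NICD/p18 APs, Slc1a3 at least 1.95-fold and Aldh1l1 at least 2.07-fold. Glul was at least 6.39-fold higher. Overlap between groups is given as a description throughout, since the share of all probe sets without overlap was not counted. The neurosphere APs were E11 cells kept 3 days in vitro, while the NICD/p18 APs stayed in the embryo until E14. Against the neurosphere APs, Clu was at least 4.28-fold and Aldh1l1 at least 2.07-fold higher in the NICD/p18 APs without overlap. Fabp7 differed by 0.10 between these 2 groups, near the top of the normalized scale. Without M5K and M6C, the pair with 9 neuron markers on, the same 5 members were on in both cells, 5 members counted as higher than in E11 AP-like cells, and Gfap, on in 1 of the 2 cells left, brought the number of members on to 6. With each array held to its own phe spike 3 members were on, Fabp7, Glul and Clu, and Aldh1l1 was on in 1 of 4 cells. Hes5, a Notch target, was on in 3 of 4 NICD/p18 APs and in 2 of 3 neurosphere APs, with means of 11.02 and 11.03. It was also on in 1 of 3 E12 APs, 7 of 23 E11 AP-like cells and 7 of 17 E16 AP-like cells. The array's probe sets for Notch1 (on in 2 of 4) and for Cdkn2c, which encodes p18 (on in 0 of 4), could not be placed relative to the electroporated coding sequences, so they check neither transgene.

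Between the E16 IP-like and AP-like cells 1 member counted as lower, Clu, on 3 of its probe sets, against 1.07% of all probe sets. Clu was on in 2 of 9 IP-like cells (22.2%, interval 2.81% to 60.0%) and its mean of 5.49 was 4.88 below the AP-like mean. The 2 cells were E16-71E at 9.78 and E16-81O at 10.94. Aldh1l1 was on in 1 of 9, again E16-71E, at 11.45. These 2 cells also had 7 and 8 of the 10 AP markers on, while the other 7 IP-like cells had 2 to 6. Clu was not used to cluster the cells, but it was among the 10 genes with the largest mean difference for the E16 AP-like cluster, so its difference between these clusters is a description.

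Single E16 AP-like cells carried the members in varied sets. Counted on the main probe sets, the number of members on per cell ran from 0 to 2 with a median of 1 in E11 AP-like cells. It ran from 1 to 2 in E12 APs and was 2 in each neurosphere AP. On its second probe set Glul was also on in the E11 AP-like cell E11-37M, at 10.83, beside Fabp7 and Slc1a3. The NICD/p18 APs had 3 to 6 members on, median 5, and the E16 AP-like cells 2 to 5, median 3, with at least 4 on in 7 of them. Fabp7 was part of every set in the 17 E16 AP-like cells, and 3 of them had all of Fabp7, Slc1a3, Glul, Aldh1l1 and Clu on. Slc1a3 and Clu were both on in 6 cells, Slc1a3 alone in 3, Clu alone in 5 and neither in 3. Clu and Aldh1l1 were both on in 7, and Clu and Glul in 6. In the E16 IP-like cells the number ran from 1 to 3.

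**Figure D4:**
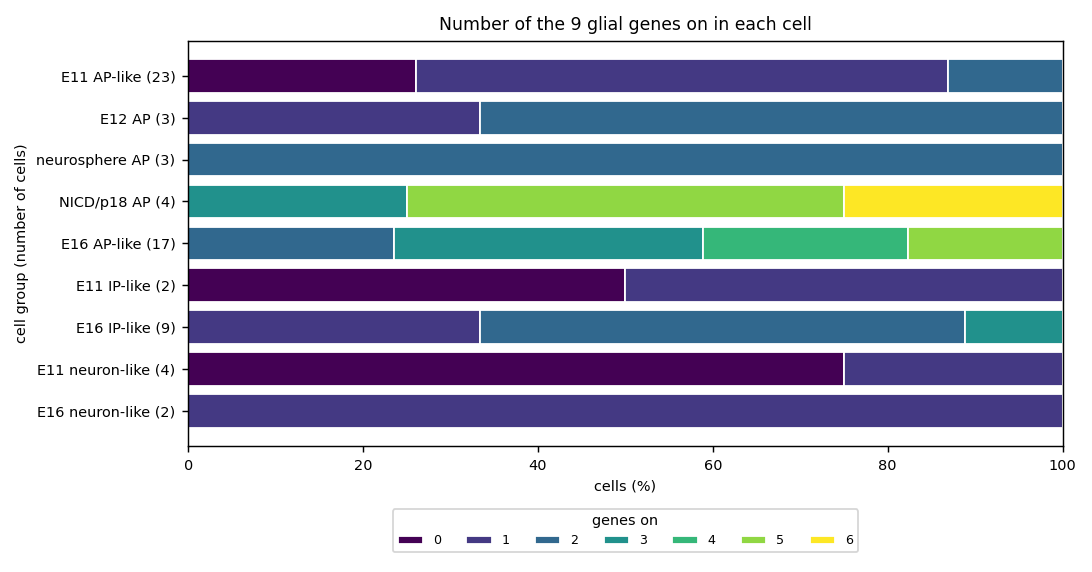
Share of cells, in percent, with 0 to 6 of the 9 glial genes on by their main probe sets, for each cell group (number of cells in brackets). The E11 AP-like bar ends at 2 genes, the E16 AP-like bar runs from 2 to 5, and the NICD/p18 bar from 3 to 6.

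Likeness between the members across cells was described by rank correlation. Over all 57 E11 and E16 cells the Spearman rho was 0.67 for Fabp7 and Slc1a3, 0.62 for Fabp7 and Clu, 0.58 for Slc1a3 and Clu and 0.45 for Clu and Aldh1l1, while Glul had values from -0.07 to 0.14 with the other 4. Within the 17 E16 AP-like cells it was 0.45 for Fabp7 and Slc1a3, 0.43 for Slc1a3 and Aldh1l1, 0.38 for Clu and Aldh1l1 and 0.04 for Slc1a3 and Clu. Within the 23 E11 AP-like cells the same pairs had -0.01, 0.07, -0.15 and 0.15. These are descriptions only, since the cells share amplification and array scale, and the 57 cells pool stages and cell types that differed in these genes.

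The genes whose pattern was most like each member were sought by Spearman rho over the 57 E11 and E16 cells, among 7227 probe sets outside the members with at least 10 cells on. For Fabp7 they were Dbi at 0.86, which encodes an acyl-CoA-binding protein, Ptn at 0.82, a secreted growth factor, and Mt3 at 0.81, a metallothionein. For Slc1a3 they were Mfge8 at 0.71, a secreted glycoprotein, Aldoc at 0.71, the aldolase of brain, and Pea15a at 0.69. For Aldh1l1 they were Bcan at 0.69, the matrix proteoglycan brevican, Aldoc at 0.68 and Pde1b at 0.65. For Clu they were Rgcc at 0.71, Slc9a3r1 at 0.67 and Psph at 0.66, a serine-synthesis phosphatase. Glul had no close partner, with Tceal1 at 0.44, Hmgb2 at 0.42 and Pdcd10 at 0.42. Within the E16 AP-like cells alone the same pairs ran from -0.20 for Clu and Psph to 0.60 for Slc1a3 and Pea15a.

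A wider list of 39 glial genes, chosen with earlier results of these data known, was read the same way, and 33 had a main probe set with at least 1 cell on. In E16 against E11 AP-like cells 12 counted as higher, 1 as lower and 20 as neither, with a median difference of 3.10, beside 0.866% of all probe sets counted as higher. The counts and the median are over these 33 main probe sets, and a gene could enter them through the group where it was high. Among the listed genes with no cell on, the differences ran from -0.08 for Ntsr2 to 0.59 for Slc4a4. The structural, matrix and secreted genes held 4 of the genes counted as higher, Tnc, Ptprz1, Mfge8 and Cst3, of 8 with a cell on. Tnc, the matrix protein tenascin C, was on in 0 of 23 E11 and 17 of 17 E16 AP-like cells, with means of 2.53 and 11.88. Ptprz1, a receptor phosphatase, was on in 16 of 23 and 17 of 17, and Mfge8 in 2 of 23 and 16 of 17. Vim, an intermediate filament, was on in every AP-like cell of both stages. Nes, another, was on in 2 of 23 and 6 of 17. Vim, Nes and Sox9 were also among the AP markers used to cluster the cells. Sparcl1 was on in 2 of 3 neurosphere APs and 4 of 17 E16 AP-like cells, and Bcan in 3 of 3 and 8 of 17.

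The channels, pumps, transporters and junction genes gave other counts, with 0 of 7 higher at E16. Gja1, the gap junction protein connexin 43, counted as lower, at 17 of 23 E11 and 5 of 17 E16 AP-like cells on, with means of 10.59 and 6.25. Mlc1 was on in 1 of 23 and 12 of 17, with an E16 mean of 8.59 under the level, and Kcnj10, a glial potassium channel, in 0 of 23 and 4 of 17. In the NICD/p18 APs Kcnj10 was on in 3 of 4 cells and Mlc1 in 4 of 4, and both counted as higher than at E11, while Gja1 was on in 0 of 4. Slc7a10, an amino-acid transporter, was on in 2 of 4 NICD/p18 APs and 1 of 17 E16 AP-like cells. Gjb6 and Slc4a4 were on in no cell.

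Of the metabolic and detoxifying genes 4 of 9 counted as higher at E16, Aldoc, Ndrg2, Mt1 and Mt3. Aldoc was on in 1 of 23 E11 and 17 of 17 E16 AP-like cells, and it was on in all 3 E12 APs and all 3 neurosphere APs as well, the E12 mean lying 7.40 above that of E11. Mt3 was on in 2 of 23 and 16 of 17, with 0 of 3 at E12 and 3 of 3 in neurosphere APs. Gldc, of glycine breakdown, was on in 12 of 23 and 7 of 17. Apoe, the lipid carrier of astrocytes, was on in 4 of 4 NICD/p18 APs and in 3 of 17 E16 AP-like cells, with means of 11.76 and 5.40. Mt2 was on in 20 of 23 and 17 of 17, Dbi in every AP-like cell of both stages, and Acsbg1 in 2 of 3 neurosphere APs and 5 of 17 E16 AP-like cells. Dio2 was on in no cell.

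Of the receptors and regulators 4 of 9 counted as higher at E16, Fgfr3, Ednrb, Nfia and Rlbp1. Rlbp1, a retinaldehyde-binding protein, was on in 1 of 23 and 17 of 17, and Ednrb, an endothelin receptor, in 1 of 23 and 14 of 17. Nfia, a transcription factor of gliogenesis, was on in 14 of 23 and 16 of 17, and Nfib in 19 of 23 and 16 of 17. Fgfr3 and Sox9 were on in 3 and 2 of the 3 E12 APs, and both counted as higher there. S1pr1, a lipid receptor, was on in 2 of 4 NICD/p18 APs and 7 of 17 E16 AP-like cells. Ntsr2 and, among the structural genes, Cd44 were on in no cell. Over the whole list 6 genes counted as higher in E12 APs, 12 in neurosphere APs and 15 in NICD/p18 APs, beside 2.63%, 2.84% and 3.00% of all probe sets, with 1 counted as lower in the neurosphere and NICD/p18 APs, Gja1 in both. The NICD/p18 list differed from the E16 list by the addition of Bcan, Kcnj10, Mlc1 and Apoe and the absence of Mt1.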

How the data were processed

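Single-cell cDNA had been amplified from poly(A) tails and hybridised to Affymetrix Mouse Genome 430 2.0 arrays, and the authors deposited MAS5 signal intensities, 1 array per cell, 68 arrays in all. The 3′ bias of that amplification means that probe sets far from a transcript's end can miss it. The deposited intensity values were quantile-normalized together over 45101 probe sets and log2 transformed, and the 20-copy level was the median phe spike. No columns of other samples were present. One E11 array that the study's methods call low in quality was left out, so that 67 cells entered. E11 and E16 cells were clustered into 3 clusters per stage on AP, IP and neuron markers. Each group was 1 sample, so counts, means and exact binomial intervals are given without tests. Array number and signal limit the precision. All 9 genes were named, with listed glial genes on in at least 50% of the cells of any group, those with no cell on, and the 3 genes most alike to each member on in at least 10 cells. Members and lists were chosen with earlier results of these data known. Of the wider glial list, 1 gene is not reported here. Alternatives covered scaling, level, floor, filter, probe-set rule, cell selection and left-out cells. Scripts in Python 3.11.15, tested on simulated data, used scipy 1.17.1, pandas 2.3.3, numpy 2.4.6 and matplotlib 3.10.9.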

Additional observations from a re-analysis of the deposited data

Results flagged for a closer look

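The main probe set of Glul read -1.36 on the log2 scale in the E16 IP-like cell E16-76C, far below the other 8 cells of its group, which ran from 6.54 to 11.89. On the other Glul probe set, 1426235_a_at, the same cell read 10.12 and was on, so the low value belongs to 1 probe set. Aqp4 in the E16 IP-like cell E16-75A read -0.35, against 3.18 to 5.95 in the others, all below the 20-copy level. These 2 came from 27 pairs of group and gene, and chance alone sets apart about 1 in 20. On a Slc1a2 probe set outside the main measurement, 1438194_at, 3 cells were on.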

How the results depend on the processing

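No difference counted as higher or lower changed sign. Across the alternatives 168 of 202 values stayed within a tolerance among the member counts, array-wide and wider-list counts and correlations. Among the counts of cells with a gene on and the member differences between groups, 695 of 738 did. The tolerance was a ratio for member and probe-set counts, the 95% interval for cell counts and the larger SD between cells for differences. Correlations had a fixed margin, so a value within tolerance could still have moved. Of 423 member differences under the alternatives 43 changed sign, 7 of them on leaving out 1 cell, all from differences of at most 1.14 that did not count as higher or lower. With signals as deposited, 1 member was on in E11 AP-like cells, 2 had E12 means at the level and 2 counted as higher at E12, while the array-wide higher counts were 118 at E16, 2951 at E12, 2830 in neurosphere APs and 2228 in NICD/p18 APs (from 179, 543, 587 and 621). With scaling on the lys spike, 1 member was on in E11 and 3 in E16 AP-like cells, 2 had E12 means at the level and 2 counted as higher at E12, and the array-wide counts were 95 at E16, 817 at E12 and 1141 in neurosphere APs. With the median over a gene's probe sets, 1 member was on at E12, 2 in NICD/p18 APs and 2 in E16 AP-like cells, and in NICD/p18 APs 2 had means at the level and 2 counted as higher. That rule was not run for array-wide counts. With a floor, 0 members and 354 probe sets counted as higher at E12, and 146 probe sets as lower in E16 IP-like cells. At double the level 1 member was on at E12 and 2 in E16 AP-like cells, and with the level halved 1 in E11 AP-like cells. At each array's own phe spike 3 were on in NICD/p18 APs and 2 in E16 AP-like cells. With no cell types, 2 were on at E16, 1 had a mean at the level, 1 counted as higher, and so did 95 probe sets. Leaving out 1 cell each gave 1 to 2 members with E12 means at the level and 1 to 2 counted as higher at E12, the 2 without replicate 3. Without M5K and M6C, a choice made after seeing the data, 1203 probe sets counted as higher in NICD/p18 APs. The causes were not tested. No paired analysis was possible because replicates were numbered here in accession order and the labels give no number that pairs cells across groups.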
